A study of Mus musculus with 17 samples.

Results

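H3K9ac and H3K56ac, 2 acetylation marks on histone H3, were compared with each other in untreated mouse embryonic stem cells lacking Sirt6. The members were the peaks of 2 deposited lists, 3593 for H3K9ac and 2235 for H3K56ac, out of 21442 peaks in the 8 acetylation lists of the series. Peaks of the lists that overlapped by 1 bp or more were merged into 4077 regions. A region was called shared when it held a peak of each mark, H3K9ac-only when it held H3K9ac peaks alone, and H3K56ac-only when it held H3K56ac peaks alone. The rule used peak positions and no measured strength beyond the peak call itself. A region held a mark only where the peak caller's q limit was passed, which depends on strength. Class and strength are therefore not independent.

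Acetylation of lysine 9 in the tail of histone H3 is a mark of active promoters and enhancers. Lysine 56 lies in the globular core of H3, where DNA enters and leaves the nucleosome, and its acetylation accompanies newly assembled chromatin and has been mapped near pluripotency genes in embryonic stem cells. Sirt6 is a NAD-dependent deacetylase that removes acetyl groups from both lysines.

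The cells came from the 129 strain, carried Sirt6 (WT) or lacked it (KO), and were grown with LIF on irradiated feeder cells that were removed by plating before use. The labels do not say whether a genotype is 1 clone or several. The H3K9ac antibody came from Millipore and the H3K56ac antibody from abcam. The same marks were profiled in untreated WT cells and in WT and KO cells exposed to retinoic acid (RA) for 2 days in medium without LIF and harvested a day later. Sirt6 itself was profiled in untreated WT and untreated KO cells, and 5-hydroxymethylcytosine (5hmC) in untreated WT and KO cells by CMS-IP. Each of the 17 samples is the single library of its group, so differences stand without replicates and none between libraries was tested. The intervals given, at the 95% level, account for counting error alone, since regions of 1 library are not replicates.

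The genotype labels were checked on the Sirt6 lists: the WT library gave 14510 peaks at 2008232 tags after filtering. The 2 KO libraries gave 0 peaks at 40006795 and 48956556 tags after filtering, and their labels give different volumes without saying of what. All Sirt6 shares below rest on the WT list, the shallowest of these libraries, whose lowest pileup was 4 tags. The H3K9ac library held 7217855 tags after filtering and the H3K56ac library 5782181, or 0.801 times as many. Its list was 0.622 times as long. All positions are in mouse build mm9. Reference tables of another build were at hand and were not used for positions, so regions are named by position, the genes and cell type markers at them were not analysed, and no sequence is printed.

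Most H3K56ac peaks lay at H3K9ac peaks, while H3K9ac peaks were about evenly divided between those with and those without H3K56ac. The 4077 regions fell into 1744 shared regions (42.8%), 1847 H3K9ac-only regions (45.3%) and 486 H3K56ac-only regions (11.9%). An H3K9ac peak overlapped 78.3% of H3K56ac peaks (Wilson interval 76.5% to 79.9%). An H3K56ac peak overlapped 48.6% of H3K9ac peaks (47.0% to 50.2%). The lists differ in length and depth, and the part of depth was not tested. With the H3K9ac list shortened to the 2235 peaks of highest −log10 q, the shares were 69.7% of H3K56ac peaks and 69.5% of H3K9ac peaks, and the H3K9ac-only regions numbered 681.

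The overlaps were deep, and few single-mark regions had a peak of the other mark close by. Of the 1751 overlapping pairs of peaks, 1740 (99.4%) overlapped by at least 50% of the shorter peak, and in 861 the shorter peak lay wholly inside the longer. The smallest overlap that made a region shared was 45 bp, on chromosome 11 from 53113335 to 53113744, with fold enrichments of 4.14 for H3K9ac and 5.80 for H3K56ac. The smallest gap that kept a region single was 16 bp, at an H3K9ac-only region on chromosome 17 from 29144213 to 29144424 with a fold enrichment of 5.45. The nearest H3K56ac peak lay a median of 384340 bp from an H3K9ac-only region, and within 1000 bp of 35 of them (1.89%). The nearest H3K9ac peak lay a median of 192716 bp from an H3K56ac-only region, and within 1000 bp of 19 (3.91%). The distances that the number of peaks alone would give were not computed.

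Shared regions were the stronger ones for both marks. Fold enrichment is the authors' value per peak, the tag pileup at the summit over the local background that the peak caller expected there, and it ranks peaks within 1 list. The median H3K9ac fold was 13.2 in shared regions (interval of the median 12.6 to 13.6) and 6.37 in H3K9ac-only regions (6.27 to 6.52), a ratio of 2.07. The median H3K56ac fold was 11.7 in shared regions (11.2 to 11.97) and 6.93 in H3K56ac-only regions (6.61 to 7.08), a ratio of 1.69. The highest fold of any single-mark region was 16.3 for H3K9ac and 13.5 for H3K56ac. Above those values lay 599 shared regions for H3K9ac (34.3%) and 677 for H3K56ac (38.8%). The weaker end of the shared class overlapped both single-mark classes, with lowest folds of 1.37 for H3K9ac and 1.43 for H3K56ac. When regions present in every one of the 8 acetylation lists were left out, the difference in median fold between shared and single-mark regions went from 6.81 to 2.97 for H3K9ac and from 4.79 to 2.51 for H3K56ac. No input library entered the acetylation lists. The series holds whole-cell extract of untreated WT and KO cells, and the recurrent regions were not checked against it.

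Sharing increased with strength in both lists. When the H3K9ac list was divided into 5 groups of near-equal size from the lowest fold to the highest, an H3K56ac peak overlapped 16.3%, 20.9%, 35.1%, 72.0% and 99.2% of them. In the H3K56ac list the corresponding shares with H3K9ac were 47.2%, 61.9%, 85.3%, 98.4% and 100%. All 447 H3K56ac peaks of the strongest group were thus also H3K9ac sites, and 712 of 718 of the strongest H3K9ac peaks were H3K56ac sites. The lower groups separate the marks: an H3K56ac peak of the weakest group was at an H3K9ac peak in 211 of 447 cases, and an H3K9ac peak of the weakest group was at an H3K56ac peak in 118 of 723.

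Peaks of shared regions were also longer and higher. The H3K9ac peak had a median length of 290 bp in shared regions (286 to 294) and 235 bp in H3K9ac-only regions (232 to 238). For H3K56ac the medians were 291 bp (286 to 295) and 236.5 bp (233 to 240). Without the regions called in all 8 lists, the differences went from 55 to 21 bp and from 54.5 to 27.5 bp. Single-mark peaks thus lay close to the shortest length in each list, which was 212 bp for H3K9ac and 224 bp for H3K56ac, the estimated fragment lengths of those libraries. The median summit pileup was 28 tags for H3K9ac in shared regions and 15 tags in H3K9ac-only regions. It was 23 tags for H3K56ac in shared regions and 14 tags in H3K56ac-only regions. The highest pileups, 424 for H3K9ac and 448 for H3K56ac, lie at the ceiling that 1 tag per position and strand sets at these fragment lengths.

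**Figure D1:**
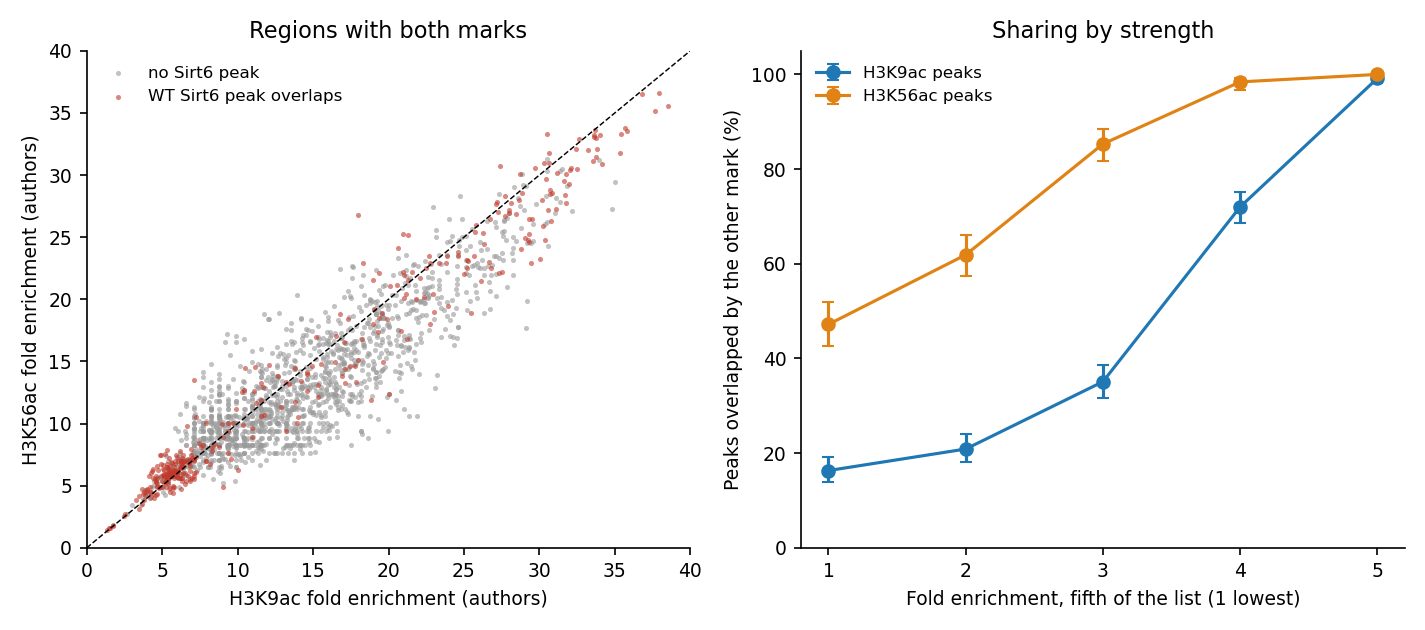
Left, H3K56ac against H3K9ac fold enrichment (authors' values, no unit) for the 1744 shared regions, with red points where a WT Sirt6 peak overlaps and a dashed line of equal values. Right, percent of peaks overlapped by the other mark in 5 groups of each list by fold, with Wilson 95% intervals; the shares run from 16.3% to 99.2% for H3K9ac and from 47.2% to 100% for H3K56ac.

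Within shared regions the folds of the marks moved together. Across the 1744 regions Pearson's r was 0.921 and Spearman's rho 0.892, as a description of regions that share the genome position, its mappability and its local read background. The logarithm of local background, computed below, itself had an r of 0.968 between the libraries, whereas the r of the folds was taken without logarithms. The ratio of the H3K9ac fold to the H3K56ac fold had a median of 1.06 and ran from 0.750 at the 5th percentile to 1.53 at the 95th. The folds come from lists with separate depths and backgrounds, so the ratio ranks regions and does not measure a difference in acetylation. It was above 2 in 5 regions and under 0.5 in 0.

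The regions with the largest ratios had H3K9ac folds among the upper values of the list, and those with the smallest ratios had lower ones. The choice by ratio itself favours this order. The largest ratio, 2.12, was at a region on chromosome 3 from 60474028 to 60474320, with an H3K9ac fold of 17.5 and 37 tags of H3K9ac and 13 of H3K56ac at the summits. A region on chromosome 3 from 139481382 to 139481775 had 44 and 15 tags, and one on chromosome 6 from 130401892 to 130402174 had 33 and 14 tags. All of these 3 regions were called in every other acetylation list and had no Sirt6 peak. The smallest ratio, 0.529, was at a region on the X chromosome from 129969033 to 129969383. This region had an H3K9ac fold of 7.14, an H3K56ac fold of 13.5, and 12 tags of H3K9ac and 24 of H3K56ac. It overlapped a WT Sirt6 peak, and the other list that called it was that of H3K56ac in KO cells after RA. The next, at chr6:138929097-138929414 (ratio 0.540) and chr14:84791549-84791874 (0.543), had no Sirt6 peak.

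The 5 strongest shared regions had nearly the same fold for both marks. The first, at chr12:50352091-50352463, had an H3K9ac fold of 37.9 and an H3K56ac fold of 36.6. The region at chrX:60379562-60379977 had folds of 36.8 and 36.5, that at chr13:86453006-86453378 had 38.5 and 35.6, that at chr15:67742137-67742519 had 37.6 and 35.2, and that at chr4:23134473-23134839 had 35.7 and 33.8. Their H3K9ac and H3K56ac summits were at most 12 bp apart. All 5 overlapped a WT Sirt6 peak, and all 5 were called in every one of the 6 other acetylation lists. The strongest H3K9ac-only region, on chromosome 8 from 75890739 to 75891008 (fold 16.3, 32 tags), had no Sirt6 peak. H3K56ac was called there in untreated WT cells and in WT cells after RA, and in neither KO list. The strongest H3K56ac-only region, on chromosome 15 from 49085526 to 49085861 (fold 13.5, 27 tags), had no Sirt6 peak, and of the other lists it was called in that of H3K56ac in KO cells after RA.

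Summits of the marks nearly coincided. The H3K56ac and H3K9ac summits of a shared region were a median of 18 bp apart (17 to 20, n = 1744), with quartiles of 7 and 39.25 bp. They were within 10 bp of each other in 599 regions (34.3%) and within 50 bp in 1438 (82.5%). The offset exceeded 147 bp, the length of DNA wound on a nucleosome, in 50 regions (2.87%). The median overlap of a pair was 265 bp, which describes the same closeness and is not a limit set by the rule. Peaks that did not overlap never entered, and the peaks are short, so very large offsets could not be seen. The share therefore cannot tell how the marks lie relative to a nucleosome. No side was preferred by more than a few bases: the signed offset, H3K56ac minus H3K9ac along the chromosome, had a median of -1 bp (-2 to 0), and strand relative to genes was not analysed here.

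Summits were closer in stronger regions and farther apart at Sirt6 sites. From the lowest to the highest group of shared regions by H3K9ac fold, the median distance was 42, 23, 18, 13 and 10 bp. It was 25 bp (20 to 30) in the 361 shared regions with a Sirt6 peak and 17 bp (16 to 19) in the 1383 without. Offsets over 147 bp made up 36 of 361 regions with Sirt6 (9.97%) and 14 of 1383 without (1.01%). The groups also differed in fold and length. Of the 361 regions with Sirt6, 177 were in the lowest group by H3K9ac fold and 111 in the highest. Their H3K9ac peaks had a median length of 330 bp, against 281 bp without Sirt6. The part of fold and length in the Sirt6 difference was not tested. The largest offset, 529 bp, was in a 1781 bp region of unplaced sequence whose local background was 69.8 times the genome-wide value for H3K9ac. The next, -319 bp (H3K56ac minus H3K9ac), was on chromosome 10 from 23506422 to 23506947, at folds of 4.29 and 4.46, and overlapped a Sirt6 peak of 1004 bp.

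**Figure D2:**
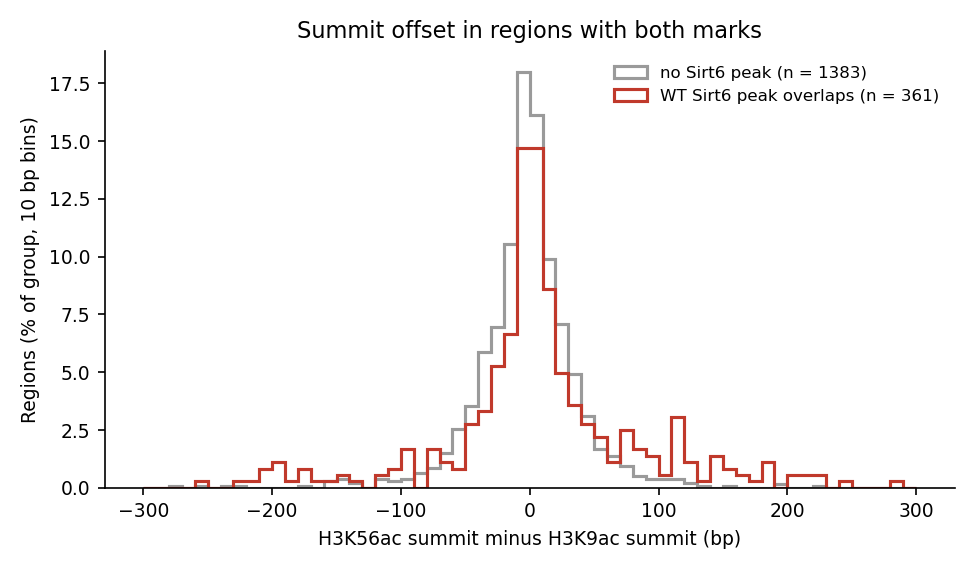
Distance from the H3K9ac summit to the H3K56ac summit in bp (negative, H3K56ac lies at the lower coordinate) in shared regions, as percent of each group in 10 bp bins, for the 361 regions with a WT Sirt6 peak and the 1383 without. Both groups peak at 0 and the group with Sirt6 has the wider tails; 2 regions with larger offsets lie outside the axis.

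Regions with a single mark overlapped WT Sirt6 peaks more often than shared regions did. Over all 4077 regions, 1574 overlapped a WT Sirt6 peak (38.6%). The share was 20.7% in shared regions (361 regions, 18.9% to 22.7%), 53.4% in H3K9ac-only regions (987 regions, 51.2% to 55.7%) and 46.5% in H3K56ac-only regions (226 regions, 42.1% to 50.9%). Shared regions lay 32.7 percentage points below H3K9ac-only regions (Newcombe interval of shared minus H3K9ac-only, -35.7 to -29.7) and differed from H3K56ac-only regions by -25.8 points (-30.6 to -21.0). H3K9ac-only regions lay 6.94 points above H3K56ac-only regions (1.94 to 11.9).

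These orders depended on which peaks the lists held. With a −log10 q of at least 10 in the acetylation lists the Sirt6 shares were 16.4% for shared, 15.5% for H3K9ac-only and 8.49% for H3K56ac-only regions. Shared minus H3K9ac-only was then 0.965 points (-2.68 to 4.36), a difference within counting error. With lists of equal length the Sirt6 shares were 16.6%, 20.6% and 48.5%. H3K9ac-only minus H3K56ac-only then turned to -28.0 points (-32.7 to -23.0).

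Among single-mark regions the Sirt6 sites were concentrated at the lowest folds, though not at lower pileups. From the lowest to the highest group of H3K9ac-only regions by fold, the Sirt6 share was 88.6%, 88.4%, 74.1%, 13.9% and 1.91%. Among H3K56ac-only regions it was 79.6%, 79.4%, 55.6%, 10.5% and 6.19%. Shared regions differed in having a second set of Sirt6 sites at the top, with shares of 50.7%, 6.86%, 5.76%, 8.31% and 31.8%. Of the 177 Sirt6 sites in the lowest group, 98 were called in none of the 6 other acetylation lists and 31 in all of them, beside 126 and 73 of all 349 regions of that group. Of the 111 in the highest group, 0 were called in none and 88 in all, beside 0 and 313 of all 349, so recurrence differed between the fold groups as a whole too.

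**Figure D3:**
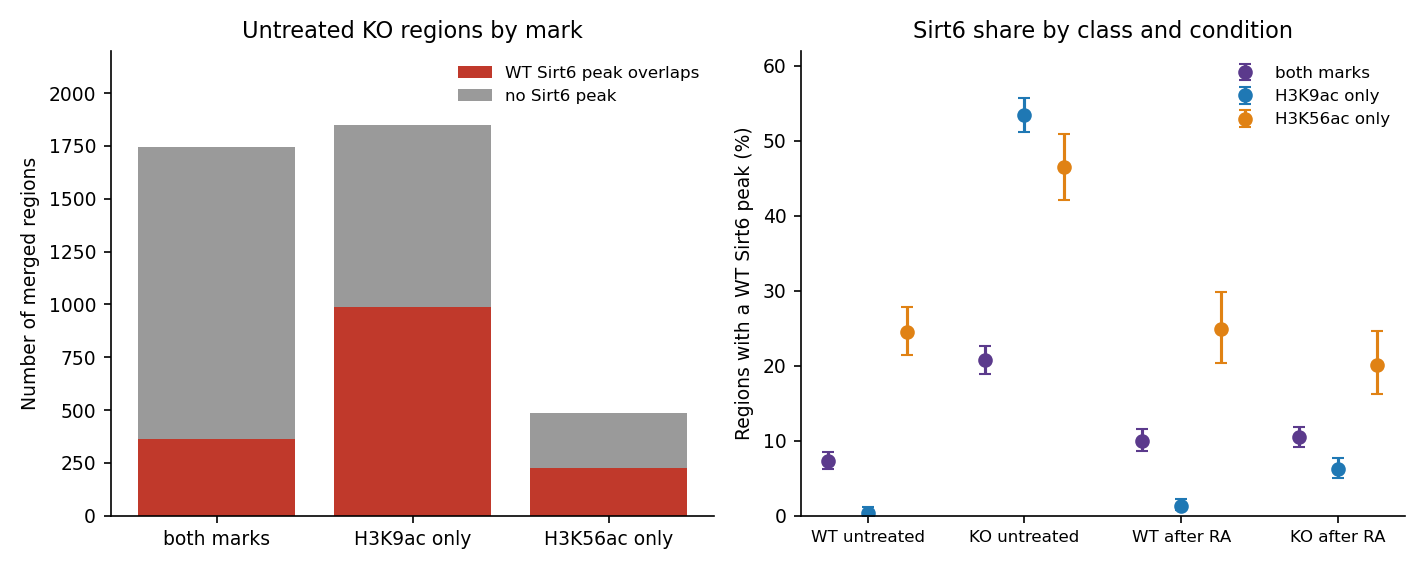
Left, number of untreated KO regions per class, with those overlapped by a WT Sirt6 peak in red (361 of 1744, 987 of 1847 and 226 of 486). Right, percent of regions with a WT Sirt6 peak by class for the H3K9ac and H3K56ac lists of each condition, with Wilson 95% intervals; untreated KO is the one condition in which the H3K9ac-only point lies above the H3K56ac-only point, an order that turned with lists of equal length.

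Fold depends on the background as well as on the tags. The peak caller's formula gives the local background at each peak back from its pileup and fold, and the lowest value found in each list, 0.821 tags for H3K9ac and 0.695 for H3K56ac, matched the genome-wide background computed from tag number and fragment length, 0.818 and 0.693. Sirt6 sites stood in raised local background. Among H3K9ac peaks within 1% of the lowest, genome-wide value, 25 of 854 overlapped a Sirt6 peak (2.93%). Among those with at least 2 times the genome-wide background, 929 of 1298 did (71.6%). For H3K56ac the shares were 14 of 465 (3.01%) and 410 of 743 (55.2%).

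Among H3K9ac-only regions, those with and without Sirt6 had the same median pileup and unequal folds. The median was 15 tags in both, the fold 5.58 with Sirt6 and 8.22 without, and the local background 2.29 and 1.00 times the genome-wide value. H3K56ac-only regions did likewise, at 14 tags in both, folds of 5.91 and 8.26, and backgrounds of 2.11 and 1.07 times. No input library entered these lists, so this background comes from the same acetylation library within 10000 bp of the peak; its part in the Sirt6 shares was not tested.

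Sirt6 shares were also taken on either side of this background value, a division chosen after seeing the data. A background of at least 2 times was found at 37.4% of all regions. At or above it, a Sirt6 peak overlapped 293 of 642 shared regions (45.6%), 650 of 721 H3K9ac-only regions (90.2%) and 135 of 161 H3K56ac-only regions (83.9%). Below it, the shares were 68 of 1102 (6.17%), 337 of 1126 (29.9%) and 91 of 325 (28.0%).

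Sharing and Sirt6 overlap were then described by pileup. Among H3K9ac peaks with at least 2 times the background, those of 11 to 15 tags were shared with H3K56ac in 7.87% of cases and overlapped Sirt6 in 97.0%. Those of 16 to 30 tags were shared in 20.6% and overlapped Sirt6 in 86.0%, and those of 32 tags or more were shared in 95.4% and overlapped Sirt6 in 38.8%. Under 2 times, H3K9ac peaks of 8 to 15, 16 to 30 and 31 to 64 tags were shared in 20.9%, 64.5% and 99.2%. They overlapped Sirt6 in 31.7%, 8.02% and 7.22%. On both sides of the background value, the share with H3K56ac thus rose and the share with Sirt6 fell as H3K9ac pileup grew. H3K56ac peaks with at least 2 times the background were shared in 28.6%, 63.8% and 98.4% from lowest to highest pileup, and overlapped Sirt6 in 89.7%, 71.2% and 38.9%. Under 2 times they were shared in 55.1%, 92.6% and 100%, and overlapped Sirt6 in 20.6%, 5.79% and 6.31%.

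**Figure D4:**
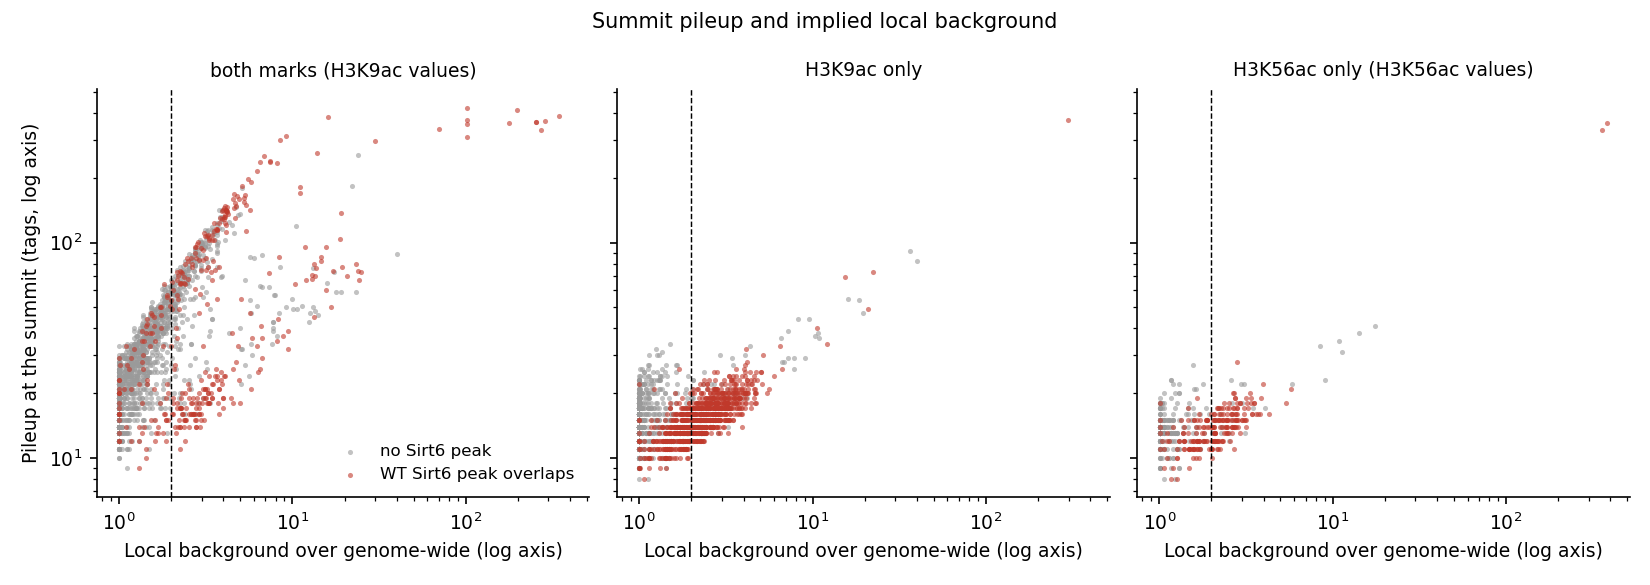
Summit pileup in tags against implied local background as a multiple of the genome-wide value, both on log axes, with 1 point per region; shared regions are drawn with their H3K9ac values, and the dashed line marks 2 times. Red points have a WT Sirt6 peak: 650 of the 721 H3K9ac-only regions to the right of the line do, and in shared regions red points spread from low to high pileup.

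At single-mark regions the Sirt6 peaks were broad, and the acetylation summit lay off their summit. The Sirt6 peak had a median length of 594 bp at H3K9ac-only regions, 588 bp at H3K56ac-only regions and 345 bp at shared regions, against 384 bp over all 14510 Sirt6 peaks. The acetylation summit was a median of 78 bp from the Sirt6 summit at H3K9ac-only regions and 70.5 bp at H3K56ac-only regions. At shared regions the distances were 27 bp from the H3K9ac summit and 21 bp from the H3K56ac summit. The median Sirt6 fold was 9.75 at shared regions (9.08 to 10.6), 10.96 at H3K9ac-only regions (10.6 to 11.3) and 11.02 at H3K56ac-only regions (10.5 to 11.4). The shared class again held a mixture: its 136 Sirt6 sites called in all 6 other acetylation lists had a median Sirt6 fold of 4.88 and summits 9 bp apart for either mark, and its other 225 had 12.05 and distances of 44 and 36 bp. The median Sirt6 peak length was 287.5 bp at the 136 and 493 bp at the 225. All Sirt6 sites of the single-mark classes were, like the 225, called in fewer than 6 other lists.

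Seen from Sirt6, acetylation peaks marked a minority of its sites. Of the 14510 WT Sirt6 peaks, 1571 (10.8%) overlapped an untreated KO region of any class. H3K9ac-only regions accounted for 994, shared regions for 359 and H3K56ac-only regions for 227. The peaks that overlapped a region had a median Sirt6 fold of 10.6, against 8.08 over the whole Sirt6 list.

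Shared regions recurred in the other conditions, and single-mark regions at Sirt6 sites mostly did not. Over all regions, 27.9% were called in all 6 other acetylation lists and 39.0% in none. Shared regions were called in all 6 in 995 cases (57.1%) and in none in 147 (8.43%). H3K9ac-only regions were called in all 6 in 131 cases (7.09%) and in none in 1130 (61.2%), and H3K56ac-only regions in 10 (2.06%) and 313 (64.4%). Of the regions called in none, a Sirt6 peak overlapped 108 of the shared (73.5%), 905 of the H3K9ac-only (80.1%) and 208 of the H3K56ac-only (66.5%).

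H3K9ac-only regions with and without a Sirt6 peak differed in recurrence. Of the 987 with Sirt6, 905 (91.7%) were called in no other list, 3 were called for H3K9ac in untreated WT cells and 24 for H3K9ac in KO cells after RA. Of the 860 without Sirt6, 225 (26.2%) were called in no other list. H3K9ac was called at 391 of the 860 (45.5%) in untreated WT cells and at 521 (60.6%) in KO cells after RA. The calls with Sirt6 were also weaker, with a median −log10 q of 6.14 against 9.88 without. The part of call strength in the recurrence was not tested. Single-mark status was often not kept in other conditions: H3K56ac, the missing mark, was called in at least 1 other condition at 549 of the 860 regions without Sirt6 (63.8%), against 71 of the 987 with Sirt6 (7.19%). For H3K56ac-only regions, H3K9ac was called in at least 1 other condition at 114 of 486 (23.5%). The H3K9ac-only regions called in all 6 other lists had a median of 18 tags and a fold of 9.89, below the 40 tags and 16.5 of shared regions called in all 6.

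**Figure D5:**
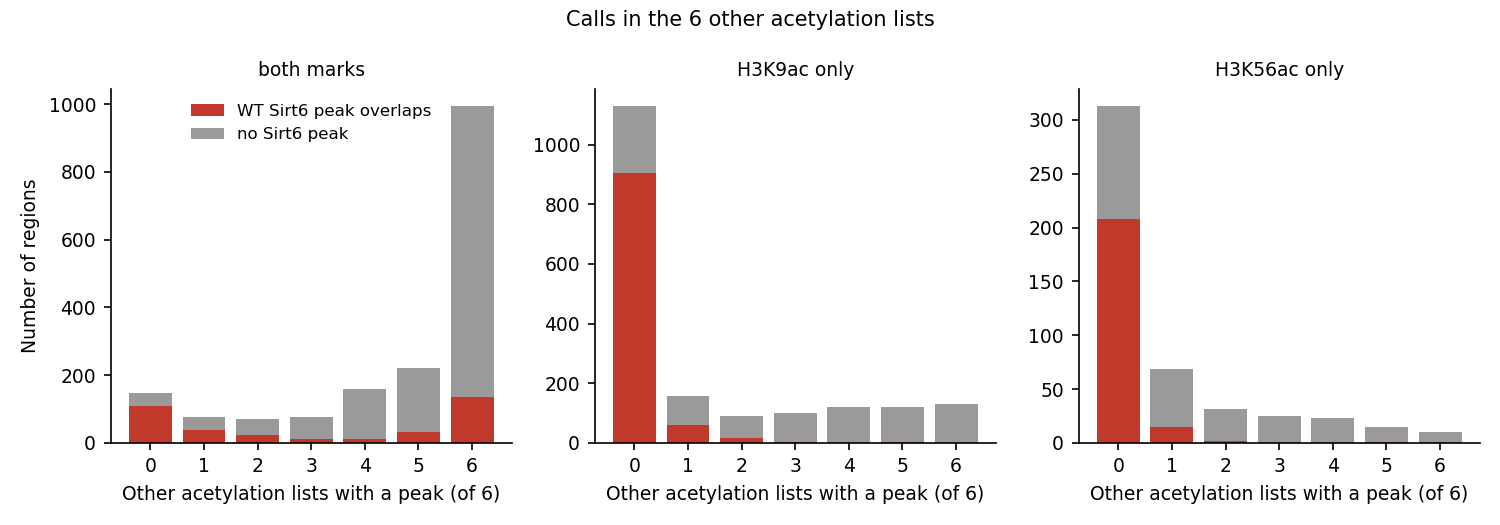
Number of regions of each class (each panel with its own vertical scale) against how many of the 6 other acetylation lists call them, with those overlapped by a WT Sirt6 peak in red. Shared regions pile up at 6 lists (995 regions) and single-mark regions at 0 lists (1130 and 313 regions), most of the latter with a Sirt6 peak.

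Set beside the same pair of marks in the other conditions, untreated KO had the smallest share of H3K9ac peaks with H3K56ac in the full lists, an order that depended on the q limit. The share was 73.9% in untreated WT, 48.6% in untreated KO, 66.5% in WT after RA and 60.3% in KO after RA. With a −log10 q of at least 10, a setting added for the other conditions after seeing the data, it was 75.5%, 68.7%, 63.5% and 60.4%, and untreated KO was no longer the smallest. With lists of equal length, also added for the other conditions after seeing the data, it was 74.4%, 69.5%, 77.0% and 74.7%. Untreated KO was then the smallest again. The share of H3K56ac peaks with H3K9ac, in the same order, was 74.6%, 78.3%, 84.6% and 84.7%. The depth of the H3K56ac libraries differed, at 7790807, 5782181, 6145525 and 6837952 tags after filtering, and was lowest in untreated KO; its part in the result was not tested. The median distance between summits was alike, at 15, 18, 16 and 19 bp.

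Sirt6 sites at single-mark regions were more frequent in untreated KO than in the other conditions. H3K9ac-only regions overlapped a WT Sirt6 peak in 0.413% of cases in untreated WT (3 of 727), 53.4% in untreated KO, 1.25% in WT after RA (11 of 881) and 6.24% in KO after RA (78 of 1250). For H3K56ac-only regions the shares were 24.5%, 46.5%, 24.8% and 20.1%, and for shared regions 7.32%, 20.7%, 10.0% and 10.4%. H3K9ac peaks with at least 2 times the genome-wide background made up 17.6%, 36.1%, 20.03% and 16.5% of their lists, and H3K56ac peaks 18.0%, 33.2%, 25.4% and 23.6%. Untreated KO was thus highest on all 5 measures, and with 1 library per list genotype and library cannot be told apart. With a −log10 q of at least 10 the H3K9ac-only shares were 0.521%, 15.5%, 1.61% and 1.66%. The H3K56ac-only shares were then 12.9%, 8.49%, 11.6% and 11.2%, with untreated KO the lowest. Its Wilson interval, 5.44% to 13.0%, held the shares of the other conditions. With lists of equal length the H3K9ac-only shares were 0.426%, 20.6%, 1.26% and 1.24%. The H3K56ac-only shares were 24.0%, 48.5%, 18.9% and 16.1%, and untreated KO was the highest for both.

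Few regions of either mark overlapped a window of changed 5hmC, the oxidised form of methylcytosine. The share that genome coverage of the windows alone would give was not computed. The counts therefore show neither depletion nor enrichment. Among all regions, 0.515% overlapped a window listed as lower in KO in the authors' deposited table and 0.123% one listed as higher. Of 1562 lower windows in that table, some overlapped 12 shared, 4 H3K9ac-only and 5 H3K56ac-only regions. Of 2218 higher windows, some overlapped 5 H3K9ac-only regions. None overlapped a shared or an H3K56ac-only region; the limits that 3 counts set on these shares are 0.172% of 1744 and 0.617% of 486 regions.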

How the data were processed

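The submitters' processing notes name BWA 0.5.9, build mm9, MACS2 2.0.10 and Picard, the last without its step. Each library had its own MACS2 call with a q limit of 0.01, keeping at most 1 tag per position, per the file headers. The acetylation lists had no control library, and their local background was the larger of the genome-wide value and that within 10000 bp. The WT Sirt6 list was called against whole-cell extract. The deposited lists give for each peak a pileup signal, its fold enrichment and the −log10 of p and of q. For CMS-IP, the authors' deposited table gives a log2 fold change and p-value per 500 bp window, and its 8 columns of counts and RPKM were not used.

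Lists were merged at an overlap of 1 bp. Shares carry Wilson and differences of shares Newcombe intervals; medians carry order-statistic intervals. Local background was computed as (pileup + 1) / fold − 1, and for shared regions the larger of the marks' values, relative to genome-wide, placed the region. Offsets used the pair of nearest summits. The steps were tested on simulated data. Regions were named by a rule: the 5 highest per class by fold, the extremes of fold ratio and summit offset, the highest with Sirt6 and the longest, of which the text gives some. Its part on gene lists was not applied. The members and lists were chosen with earlier results of these data known. Intervals came from statsmodels 0.14.6 and scipy 1.17.1, under Python 3.11.15 with pandas 2.3.3 and numpy 2.4.6, and plots from matplotlib 3.10.9.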

Additional observations from a re-analysis of the deposited data

Results flagged for a closer look

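The order of Sirt6 overlap between the single-mark classes was opposite in untreated KO and in the other conditions. The Sirt6 share of H3K9ac-only minus that of H3K56ac-only regions was 6.94 percentage points in untreated KO (Newcombe interval 1.94 to 11.9). It was -24.1 in untreated WT (-27.4 to -20.9), -23.6 in WT after RA (-28.7 to -19.1) and -13.9 in KO after RA (-18.6 to -9.70). The difference between conditions was not tested, since each condition has 1 library per mark. With the lists of each condition brought to equal length, an alternative that was planned for untreated KO and added for the others after seeing the data, the values were -28.0 in untreated KO, -23.6 in untreated WT, -17.6 in WT after RA and -14.9 in KO after RA, so the order was then the same in all 4. With a −log10 q of at least 10, also added for the other conditions after seeing the data, untreated KO stayed above 0 at 6.98, and the others were -12.4, -9.96 and -9.57.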

How the results depend on the processing

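Under 11 alternatives, 9 planned and 2 added after seeing the data, 83 of 145 values stayed within their counting interval or, for counts of regions, within 1.5 times, 59 moved beyond it and 3 changed sign. Of these 3, the 2 values of shared minus H3K9ac-only had intervals that spanned both signs. Depth limits the classes: single-mark regions had medians of 15 (H3K9ac) and 14 (H3K56ac) tags, so a missing mark is one not called at this depth. No paired analysis was possible because each group holds 1 library.

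A −log10 q of at least 10 in the acetylation lists left 601 H3K9ac-only and 212 H3K56ac-only regions. It gave overlap shares of 86.2% (H3K56ac) and 68.7% (H3K9ac), and Sirt6 shares of 16.4% (shared), 15.5% (H3K9ac-only) and 8.49% (H3K56ac-only). The Sirt6 difference of shared minus H3K9ac-only was 0.965 points (-2.68 to 4.36). The median offset was 14.5 bp, the H3K9ac length difference between shared and single 49 bp, and the fold differences 6.18 (H3K9ac) and 4.21 (H3K56ac). With the limit on Sirt6 peaks too, the Sirt6 shares were 13.9%, 13.0% and 6.60%, and the difference 0.961 points (-2.45 to 4.11). The cause was not tested.

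Lists of equal length gave 681 H3K9ac-only regions, overlap shares of 69.7% and 69.5%, and Sirt6 shares of 16.6% (shared) and 20.6% (H3K9ac-only). The Sirt6 differences were -3.93 points for shared minus H3K9ac-only and -28.0 for H3K9ac-only minus H3K56ac-only, and the fold differences 5.36 and 5.51. The H3K9ac list then loses its weakest peaks by construction.

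Without the regions called in all 8 lists, 749 shared regions were left, with overlap shares of 60.6% and 28.9%, a Sirt6 share of 30.0% and a difference from H3K9ac-only of -23.4 points. The median offset was 26 bp, the length differences 21 and 27.5 bp and the fold differences 2.97 and 2.51. On autosomes the overlap shares were 76.5% and 46.5%, the Sirt6 share of H3K9ac-only regions 57.2% and its difference -36.7 points.

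At a local background of at least 2 times genome-wide there were 642 shared, 721 H3K9ac-only and 161 H3K56ac-only regions, and 80.1% of H3K56ac peaks were overlapped. The Sirt6 shares were 45.6%, 90.2% and 83.9%, shared minus H3K9ac-only -44.5 points, the length differences 93 and 94 bp and the fold differences 12.9 and 11.5. Under 2 times there were 1102 shared and 1126 H3K9ac-only regions, Sirt6 shares of 6.17%, 29.9% and 28.0%, Sirt6 differences of -23.8 points (shared minus H3K9ac-only) and 1.93 points (H3K9ac-only minus H3K56ac-only), length differences of 39.5 and 36 bp and fold differences of 4.61 and 3.31.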

Other observations

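Shared regions were more frequent on the X chromosome and on unplaced sequence than single-mark regions were. The X chromosome held 165 of 1744 shared regions (9.46%, 8.18% to 10.9%), 85 of 1847 H3K9ac-only regions (4.60%, 3.74% to 5.66%) and 16 of 486 H3K56ac-only regions (3.29%). Unplaced sequence held 86 shared (4.93%), 45 H3K9ac-only (2.44%) and 11 H3K56ac-only regions (2.26%). On X a Sirt6 peak overlapped 22 shared, 6 H3K9ac-only and 2 H3K56ac-only regions, beside 20.7%, 53.4% and 46.5% of these classes over all chromosomes.

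The 3 longest regions of each single-mark class all overlapped a Sirt6 peak and were called in no other acetylation list. They were led by an H3K9ac-only region of 703 bp on chromosome 11 from 97888209 to 97888911, with 23 tags, a fold of 5.22 and a Sirt6 fold of 19.5, and by an H3K56ac-only region of 484 bp on chromosome 4 from 119094488 to 119094971, with 15 tags, a fold of 6.17 and a Sirt6 fold of 6.13. The longest shared regions were called in all 6 other lists. One of them, 1610 bp on chromosome 9 from 3000078 to 3001687, had 415 H3K9ac tags at a fold of 2.54 and lay in a Sirt6 peak of 38342 bp, where the local background was 199 times the genome-wide value.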
